A study of Rattus norvegicus with 42 samples.

Results

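In GH4C1 cells, 300 genes kept their mean level within 1.2-fold over every combination of genotype and time that was sampled. They were chosen by that property, from their own counts. The level of each gene was expressed as counts scaled to a library total of 1000000 (CPM), with ENSRNOG00000043866 and ENSRNOG00000030478 left out of both the gene counts and the library totals. Mean CPM was taken in each of 14 groups, and a gene was kept when its highest group mean was at most 1.2 times its lowest and its lowest was at least 10 CPM. Of 13776 genes in the count tables, 8748 had at least 10 CPM in every group, and the 300 stable genes were 3.43% of those.

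GH4C1 is a rat pituitary cell line of somatolactotroph type. Wild-type cells without treatment (WT) were compared with Neat1 -/- cells (KO), in which Neat1 had been deleted with CRISPR-Cas9. Both were sampled every 4 h from ZT10 to ZT34 after a change to fresh medium, at 7 times with 3 replicates each, which gave 42 libraries. The number of KO clones is not given in the labels, and nothing in them says that replicates were separate cultures, so the p-values below measure only the spread between these libraries.

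Genes whose RNA level changes little between conditions are used as references against which other transcripts are measured, and they are often drawn from basic functions that all cells need. Neat1 is a long non-coding RNA that scaffolds paraspeckles, nuclear bodies that hold RNA-binding proteins and some transcripts. Pituitary cells in culture carry a circadian clock, which a change of medium can bring into step between cells.

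The tables name genes by Ensembl identifier, and 0 of the identifiers could be paired with a symbol. The stable genes are therefore described by identifier and level, and their functions and sequences, the pituitary markers of the line and the level of Neat1 itself were not analysed here. Libraries held 34500833 to 68839776 counts. The 2 genes left out of the totals took 0.0308 to 0.335% of counts in WT libraries and 17.6 to 21.2% in KO libraries. Counts of WT and KO were deposited separately. A KO against WT difference cannot be told apart from any difference in preparation or processing between the 2 sets. 1 WT library stood apart before any result was drawn. Replicate 1 of WT ZT34 differed from its replicates with a chi-square per degree of freedom of 375 and 694, where the other 40 pairs of replicates reached at most 54.3. The choice of stable genes did not use that library. Whether it is a sound library of its labelled group cannot be told from the files, so its changes are given as those of 1 library and not of a condition.

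The ratio of highest to lowest group mean, the value on which the genes were selected, ran from 1.062 to 1.1998 among the stable genes, with a median of 1.172. Across all genes of at least 10 CPM the median ratio was 1.669. Most stable genes lay in the upper part of the allowed range: 292 had a ratio between 1.1 and 1.2, and 8 had a ratio of 1.1 or less. The limit cut through a continuous distribution. ENSRNOG00000050806, the member nearest the limit, had a ratio of 1.1998, with group means from 21.5 ± 1.25 CPM (SD, n = 3) in WT ZT30 to 25.8 ± 0.912 CPM in WT ZT10. ENSRNOG00000017545, the nearest gene outside, had a ratio of 1.2005, with group means from 37.3 ± 0.978 CPM in KO ZT30 to 44.8 ± 0.928 CPM in KO ZT22. The 5 genes just inside had ratios from 1.1988 to 1.1998 and the 5 just outside from 1.2005 to 1.2009.

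**Figure D1:**
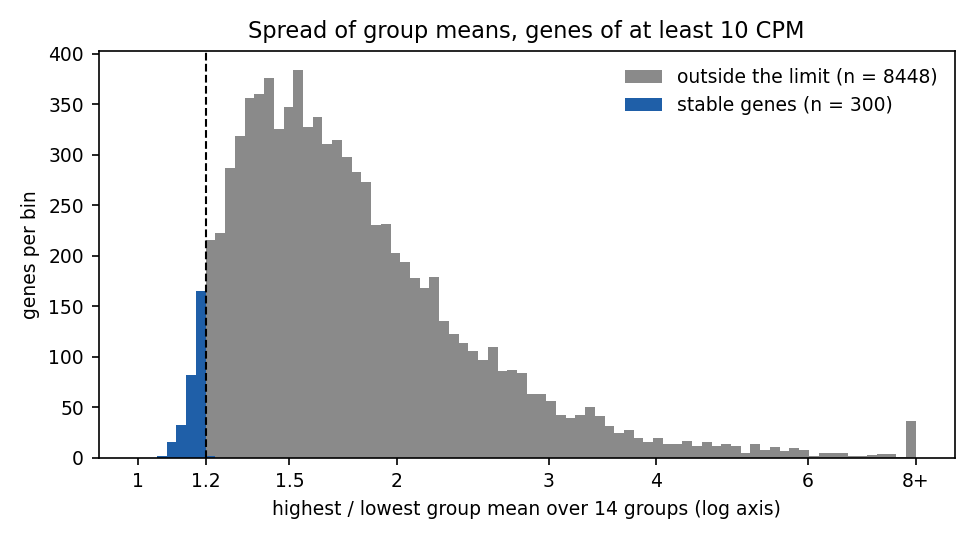
Number of genes per bin against the ratio of the highest to the lowest of 14 group mean levels, on a log axis, for genes of at least 10 CPM in every group; the last bin holds ratios of 8 or more. The 300 stable genes are the left edge of 1 continuous distribution whose median is 1.669.

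Stable genes were found in every class of level given below. Their mean level ran from 10.8 to 971 CPM, with quartiles of 38.1, 65.1 and 130 CPM, while the median over all genes of at least 10 CPM was 54.5 CPM. The share of genes that were stable was 1.36% between 10 and 20 CPM (12 of 881), 3.16% between 20 and 50 CPM (99 of 3133) and 3.72% between 50 and 100 CPM (87 of 2339). It was 4.35% between 100 and 200 CPM (62 of 1425) and 4.12% at 200 CPM or more (40 of 970). The share was lowest in the class of lowest level, and replicate spread moved with level as well. The median coefficient of variation (CV) between replicates fell from 7.46% in genes between 10 and 20 CPM to 4.44% in genes of 200 CPM or more. The part of this spread in the choice was not tested. With the 2 excluded genes left out of the totals, the stable genes together took 3.22 to 3.37% of counts in the 41 libraries used. The smallest count of any stable gene in any of those libraries was 349.

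Between replicates, the stable genes had a median CV of 4.32%, pooled over the groups with 27 degrees of freedom, against 5.59% for all genes of at least 10 CPM. Counting error alone gave 1.88% and 2.05%. The replicate spread of a stable gene was therefore larger than its reads alone would give, and it formed a sizeable part of a 1.2-fold band. In single libraries rather than group means, the highest level was a median of 1.28 times the lowest and at most 1.755 times. Only 21 of 300 genes stayed within 1.2-fold over all 41 single libraries, and 294 stayed within 1.5-fold. Across all genes of at least 10 CPM, the median ratio over single libraries was 1.856, and 18.9% stayed within 1.5-fold.

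The members differed widely in this spread. ENSRNOG00000001316 had the lowest replicate CV of all stable genes, 1.91%, where counting error gave 0.573%. Its WT level was 633 ± 15.5 CPM (SD, n = 3) at ZT10 and 739 ± 12.1 CPM at ZT26, and its ratio over all groups was 1.168. These replicates were tight enough that the 2 groups did not come near each other, so a gene inside the 1.2-fold limit was not flat in the strict sense. ENSRNOG00000013141 had the highest replicate CV, 14.5%, where counting error gave 3.07%. Its libraries ran from 19.5 to 34.2 CPM around a median of 23.9 CPM. The 3 KO ZT10 libraries alone, at 25.3, 34.2 and 20.4 CPM, spanned most of that range. Its group means stayed within the limit although its single libraries were spread 1.755-fold, the widest of any stable gene.

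ENSRNOG00000005877 had the lowest ratio of all, 1.062, and a mean level of 299 CPM. Over the 20 WT libraries used it was 285 CPM at its lowest, 297 CPM at the median and 325 CPM at its highest. Over the 21 KO libraries the same values were 283, 298 and 310 CPM. Neither genotype lay above the other, and both the lowest and the highest group mean were in WT, at ZT10 with 291 ± 8.85 CPM (n = 3) and at ZT34 with 309 ± 10.9 CPM (n = 2). In WT ZT34 replicate 1, which the choice did not use, it stood at 303 CPM, between the 301 and 317 CPM of the other replicates. On the scale of the rule its log2 change in that library was -0.03. With TMM scaling, which sets the scale from most genes, edgeR gave a log2 change of -0.14 ± 0.06 (SE).

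ENSRNOG00000026616 was nearly as narrow over the groups, with a ratio of 1.064, but not in the library that stood apart. Its group means ran from 79.1 ± 1.77 CPM in KO ZT18 to 84.1 ± 3.55 CPM in WT ZT26. Its libraries ran from 75.7 to 87.5 CPM in WT and from 77.1 to 84.2 CPM in KO, so the genotypes overlapped. In WT ZT34 replicate 1 it stood at 54.5 CPM, below every other library, and edgeR gave a log2 change of -0.65 ± 0.07 (adjusted p = 9.64e-10). A narrow ratio over the 14 groups thus did not by itself carry over to that library.

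The most abundant stable genes showed small differences by time that were of similar size to their band. ENSRNOG00000020075 had the highest mean level, 971 CPM. In KO its group mean was 912 ± 14.8 CPM at ZT14 and 1019 ± 6.79 CPM at ZT34, and in WT it was 1043 ± 9.82 CPM at ZT26 and 938 ± 2.97 CPM (n = 2) at ZT34. At ZT34 the KO libraries, at 1014 to 1027 CPM, were thus above WT replicates 2 and 3, at 940.2 and 936 CPM, while at ZT26 the WT mean was above the KO mean of 968 ± 11.6 CPM. ENSRNOG00000058898, with a mean of 947 CPM, had its highest group mean in WT ZT34 (1030 ± 86.8 CPM, n = 2) and its next highest in KO ZT34 (1013 ± 18.2 CPM), against 910 ± 12.1 CPM in KO ZT18. In WT ZT34 replicate 1 these genes stood at 1014 and 1050 CPM, and edgeR called neither, with adjusted p-values of 0.989 and 0.211. ENSRNOG00000014783 lay nearest the minimum of 10 CPM, with a lowest group mean of 10.1 ± 0.480 CPM in WT ZT30, a mean of 11.0 CPM and libraries from 9.42 to 13.0 CPM. It stood at 24.6 CPM in WT ZT34 replicate 1, beside 9.62 and 10.9 CPM in the other replicates.

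**Figure D2:**
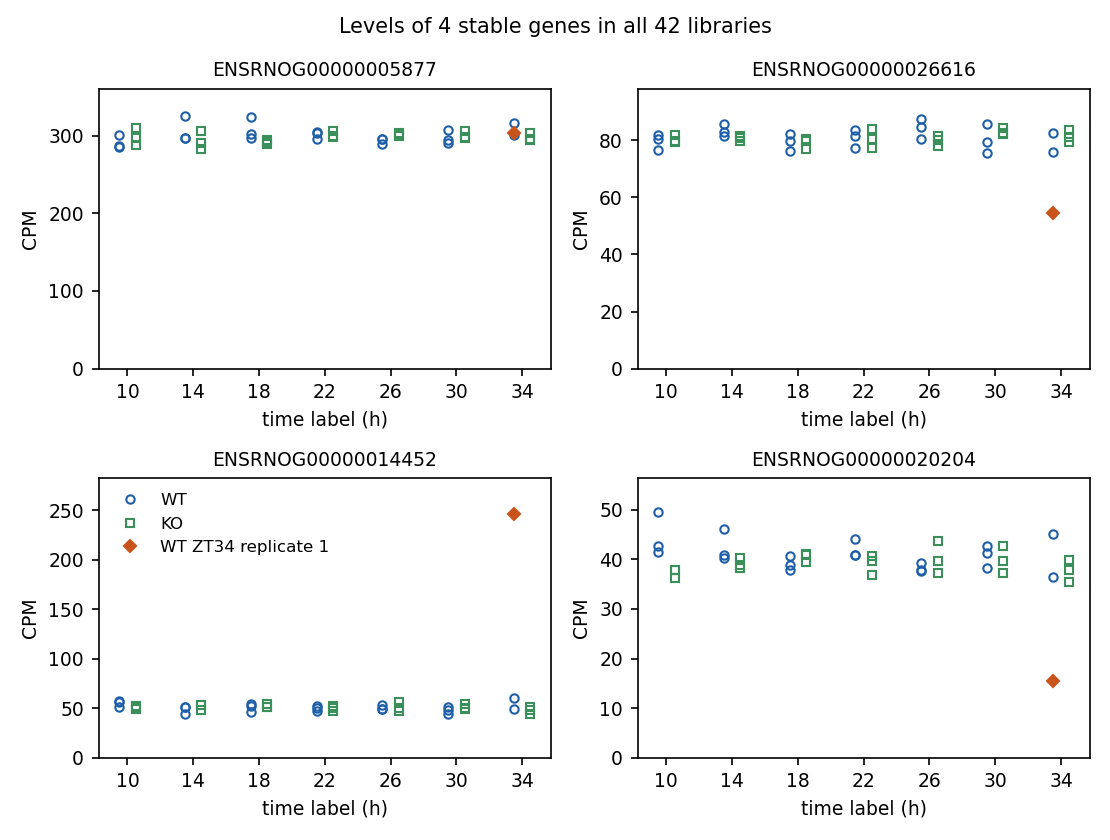
Level (CPM, linear axes from 0) of 4 stable genes in each of the 42 libraries against the time label, with circles for WT, squares for KO and a diamond for WT ZT34 replicate 1. The genes have flat, overlapping WT and KO libraries, and the diamond lies among them at 303 CPM for ENSRNOG00000005877 and far outside them for the other genes.

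Seen by group, no genotype or time held all the extremes. KO ZT34 was the group with the highest mean for 52 stable genes, the most of any group, and the lowest for 26. WT ZT34 was the opposite, with the lowest mean for 53 genes and the highest for 25, and it rested on 2 libraries. WT ZT14 was highest for 12 genes and lowest for 10, and WT ZT18 highest for 17 and lowest for 6, the lowest numbers of extremes of any group. The median log2 deviation of the stable genes from their own means lay between -0.02 in KO ZT10 and 0.01 in WT ZT22, and its SD over genes was between 0.05 in WT ZT18 and 0.08 in KO ZT34. All of these values were bounded by the choice. When ZT34 was left out of the rule in both genotypes, an alternative added after seeing the data, 579 genes met it.

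**Figure D3:**
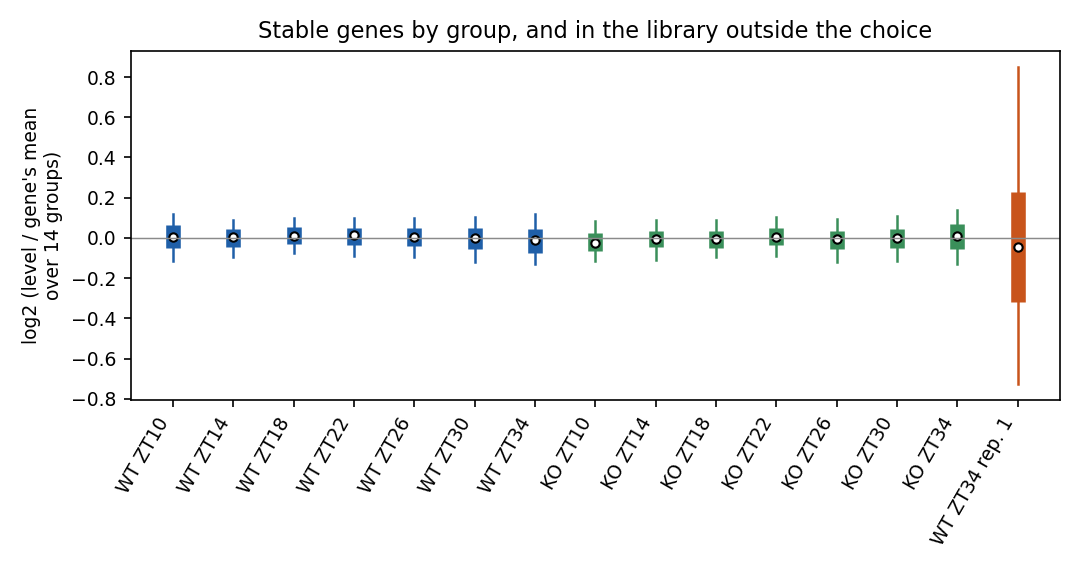
Log2 of the level of each stable gene over its mean of the 14 groups, by group and for WT ZT34 replicate 1; circles are medians over 300 genes, bars the middle 50%, and lines run from the 5th to the 95th percentile. The lines of the 14 groups, which chose the genes, stay between -0.13 and 0.14, while the library outside the choice spans -0.73 to 0.85.

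The KO against WT difference of the stable genes was small by construction. The median absolute log2 ratio of the KO to the WT mean was 0.05, with a highest value of 0.16, against a median of 0.41 for all genes of at least 10 CPM. The KO mean was the higher in 132 genes and the lower in 168. The KO and WT group means did not overlap in 17 stable genes (5.67%), 9 with KO higher and 8 with KO lower, while they did not overlap in 61.5% of genes of at least 10 CPM. Within WT the median ratio of highest to lowest time was 1.12, and within KO it was 1.114, with the wider range in WT for 160 genes and in KO for 140.

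Small differences could still pass a test at this depth. edgeR called 163 stable genes (54.3%) between KO and WT, where 90.7% of all genes tested were called. It called 91 (30.3%) between times in WT, where 44.1% of all genes were called, and 115 (38.3%) between times in KO, where 60.6% were called. With only genes of at least 10 CPM tested, the counts of stable genes called were 163, 98 and 119. The shares called of all genes of at least 10 CPM were then 93.0, 57.9 and 71.8%. The counts by time were not stable: without replicate 2 they were 17 in WT and 30 in KO (19.8 and 40.3% of all genes), without replicate 3 they were 52 and 42 (31.9 and 45.2%), and without replicate 1 the count in WT was 56 (37.1%). With WT ZT34 replicate 1 kept in its group, the count in KO was 43 (36.8% of all genes). Between KO and WT the count was 143, 121 and 141 without replicates 1, 2 and 3 (89.4, 88.0 and 88.8% of all genes). It was 116 with WT ZT34 replicate 1 kept (88.1%). These comparisons used the libraries that chose the genes, so nothing is read from the counts beyond the point that a stable gene was not one without a detectable difference. Under TMM scaling the 163 called genes were 52 higher and 111 lower in KO, where 44.8% of all genes were called higher and 45.9% lower. When library totals without the 2 genes set the scale, 165 stable genes were called, 73 higher and 92 lower, where 45.6% of all genes were called higher and 45.0% lower. The split of the calls thus differed between the scalings.

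The levels in WT ZT34 replicate 1 had not been used by the choice, but replicates 2 and 3, with which they are compared, had been. The comparison of stable with other genes is therefore not fully independent of the choice and is given as a description. Against the mean of replicates 2 and 3 on the scale of the rule, 143 stable genes stayed within 1.2-fold and 157 (52.3%) went past it, 69 higher and 88 lower. Among all genes of at least 10 CPM, 73.8% went past 1.2-fold. Past 1.5-fold were 56 stable genes (18.7%), against 44.9% of genes of at least 10 CPM, and past 2-fold were 16 (5.33%), against 19.4%. The median absolute log2 change was 0.30 for the stable genes and 0.54 for the genes of at least 10 CPM outside the limit. The middle 90% of stable genes lay between -0.69 and 0.88 and that of the other genes between -1.03 and 1.63. The stable genes thus had smaller shares past each fold in this library, but their spread was far from that of the 14 groups.

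**Figure D4:**
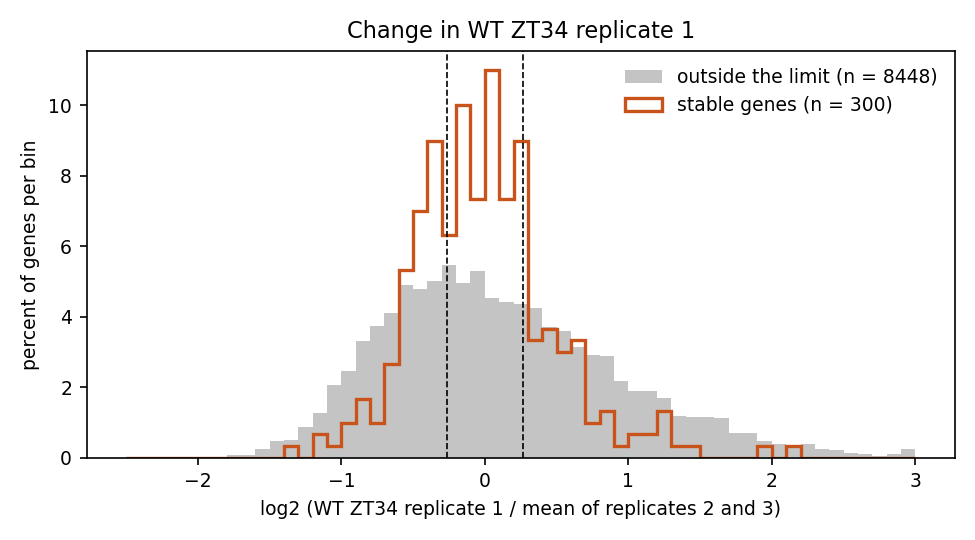
Percent of genes per bin against the log2 ratio of WT ZT34 replicate 1 to the mean of replicates 2 and 3, for the 300 stable genes and for the 8448 genes of at least 10 CPM outside the limit; the end bins also hold all values beyond them. The distribution of the stable genes is narrower, with a median absolute change of 0.30 against 0.54.

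edgeR, with this library as a group of its own and with the spread taken from the other 41, called 203 stable genes (67.7%) at an adjusted p under 0.05. It called 70.1% of all genes tested and 79.4% of those of at least 10 CPM. The test compares 1 library with 2 others, not conditions, and the lone library is assumed to vary like the others. Of the stable genes, 68 were higher (22.7%) and 135 lower (45.0%). Over all genes 35.4% were higher and 34.7% lower, and over genes of at least 10 CPM 35.4% were higher and 44.0% lower. The split depended on the scaling: with library totals without the 2 excluded genes, 88 stable genes were higher and 112 lower, and 57.3% of all calls were higher, against 50.5% with TMM. TMM moved the median log2 change of genes of at least 10 CPM to -0.11 and that of the stable genes to -0.15, from 0.00 and -0.04 on the scale of the rule.

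Of the stable genes, 2 that moved farthest up and 2 that moved farthest down in WT ZT34 replicate 1 are described here. ENSRNOG00000014452 had a ratio of 1.149 and libraries from 44.1 to 60.01 CPM in WT and from 44.4 to 56.0 CPM in KO, around a mean of 51.0 CPM. It stood at 247 CPM in WT ZT34 replicate 1, beside 49.0 and 60.01 CPM in replicates 2 and 3, which was 4.53-fold higher (edgeR log2 change 2.07 ± 0.10, adjusted p = 3.06e-17). No other library of either genotype came near that level. ENSRNOG00000001352, also with a ratio of 1.149, stood at 196 CPM beside 40.03 and 59.4 CPM, 3.94-fold higher (log2 change 1.88 ± 0.12 by edgeR, adjusted p = 1.96e-15). Among those that were lower, ENSRNOG00000020204 stood at 15.5 CPM beside 45.1 and 36.4 CPM (log2 change -1.52 ± 0.13 by edgeR, adjusted p = 1.26e-12). Its lowest level in any other library was 35.4 CPM, in KO. ENSRNOG00000007392 stood at 32.8 CPM beside 79.1 and 68.8 CPM, and below the 67.6 CPM of the lowest other WT library (log2 change -1.29 ± 0.09 by edgeR, adjusted p = 1.12e-14). These 4 genes kept their direction and passed the threshold in every alternative that was run for them.

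The size of the change in this library rose with the ratio over the groups, but these measures were not independent. The other replicates of this library's group were the reference for the change and also entered the ratio. Spread in those replicates thus entered both measures, and the order is given as a description. Among the 8 genes with a ratio of 1.1 or less, the median absolute log2 change was 0.17, edgeR called 4 and 0 went past 1.5-fold. Among the 292 with a ratio between 1.1 and 1.2 it was 0.30, with 68.2% called and 19.2% past 1.5-fold. The 751 genes next outside the limit, with ratios between 1.2 and 1.3, had a median of 0.33, with 72.6% called and 21.6% past 1.5-fold. The values went on without a step, to 0.38 for ratios between 1.3 and 1.5, 0.53 between 1.5 and 2 and 0.82 above 2. The median level was similar over these classes, from 52.3 to 67.8 CPM, and the median replicate CV went from 3.83% to 6.57% with the ratio. The part of replicate spread in this order was not tested.

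All other libraries stayed close to their groups in the stable genes. The median absolute log2 difference of a library from the other libraries of its group was between 0.035 and 0.096 in the other 41 libraries, and was 0.296 in WT ZT34 replicate 1. The number of stable genes past 1.2-fold was between 0 and 22 per library, with a median of 1, against 157 in WT ZT34 replicate 1. These 41 libraries had chosen the genes. For all genes of at least 10 CPM the median was between 0.04 and 0.128 in them and 0.525 in WT ZT34 replicate 1. The share of those genes past 1.2-fold was 0.629 to 19.5%, against 73.8%. In every library a larger share of genes of at least 10 CPM than of stable genes went past 1.2-fold. KO ZT30 replicate 1 had the highest share of genes of at least 10 CPM past it among these 41 libraries. In that library 19.5% of genes of at least 10 CPM went past 1.2-fold from the other replicates, and 6 of the 300 stable genes (2.0%) did. That library had taken part in the choice, and without it, an alternative added after seeing the data, 286 genes met the rule, 280 of them among the 300.

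**Figure D5:**
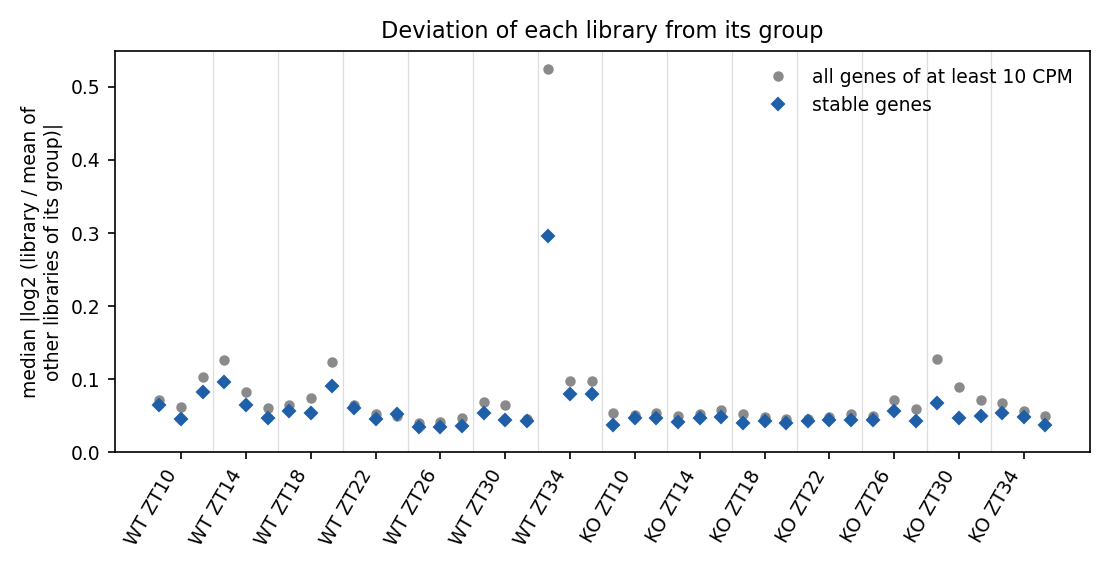
Median absolute log2 difference of each library from the mean of the other libraries of its group, for the stable genes and for all genes of at least 10 CPM, in the 42 libraries; WT ZT34 replicates 2 and 3 are each compared with 1 other library. The stable genes lie between 0.035 and 0.096 in 41 libraries, which chose them, and at 0.296 in WT ZT34 replicate 1. All genes of at least 10 CPM lie between 0.04 and 0.128 and at 0.525.

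Choosing the genes on 2 replicate numbers and measuring them in the left-out one gave values that this choice had not used. With replicate 1 left out, 231 genes were chosen, and in the 13 libraries of replicate 1 their median ratio of highest to lowest was 1.226, where all genes of at least 10 CPM had 1.719. With replicate 2 left out, 235 genes were chosen, with a ratio of 1.232 against 1.743 in its 14 libraries. With replicate 3 left out, 222 were chosen, with a ratio of 1.226 against 1.713. In the libraries left out, 86, 68 and 71 of the chosen genes stayed within 1.2-fold, and 230, 234 and 219 stayed within 1.5-fold (99.6, 99.6 and 98.6%). Of all genes of at least 10 CPM, 29.9, 27.6 and 29.5% stayed within 1.5-fold. Single libraries were compared here with limits set on means of 2 (for WT ZT34, on 1 library when replicate 2 or 3 was left out), and the highest ratio of any chosen gene was 1.636. In the left-out libraries the chosen genes were narrower than all genes of at least 10 CPM, while exact membership changed. Those libraries came from the same genotypes and times, so differences between groups that recur in each replicate enter both choice and measure. A narrower range could therefore be foreseen, and it is given as a description. Of the 300 genes, 96 were chosen in all 3 of these runs and 21 in none. The labels do not say that the left-out libraries were separate cultures.

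Stability also rested on what counted as the total. With totals that include the 2 genes left out of the rule, 182 genes met it, and 1 of the 300 was among them. On that scale the median KO to WT ratio of the 300 genes was 0.804, against 0.994 on the scale of the rule and 0.985 with TMM. TMM, which sets the scale from most genes, chose 309 genes, 237 of them among the 300. These counts are relative, and whether the RNA per cell differed between genotypes cannot be told from them.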

How the data were processed

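RNA was measured in 42 libraries of GH4C1 cells (21 WT, 21 KO). The authors deposited whole-number counts per gene, 1 table for each genotype, with no normalization. The submitters' processing notes name featureCounts; its version, the aligner, the genome build, the annotation and the strand setting are not given in the sources used here. Libraries were strand-specific and paired, per the labels' protocols. Whether reads of overlapping genes or near-identical copies were split is unknown, so values of such genes are uncertain.

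CPM, group means and ratios were computed with Python 3.11.15 and pandas 2.3.3. Tests were edgeR 4.0.16 quasi-likelihood F tests in R 4.3.3 on the counts of 13776 genes, with TMM scaling and Benjamini-Hochberg adjustment over all genes. filterByExpr removed 0 genes, and all 300 stable genes were tested. WT ZT34 replicate 1 was a group of its own in 1 fit and left out of the others. Standard errors are the size of the log2 change over the square root of F. The code was tested on simulated data with known changes. Precision per library came from 34500833 to 68839776 counts, and CVs from counting cover counting error only. Replicate pairs all differed by more than sampling noise (chi-square per degree of freedom at least 5.48), so all libraries were counted as separate. This cannot show that they came from separate cultures.

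The members and lists were chosen with earlier results of these data known. The rule for named genes took the extremes of ratio, level, nearness to the limits, change in WT ZT34 replicate 1 and replicate CV; of each class the first 1 or 2 are printed. Lists of reference, pathway and marker genes and promoter sequences were not used, since no identifier matched a symbol. Alternatives were other scalings, limits and filters, DESeq2 1.42.0, a replicate block, and leaving out replicates or libraries.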

Additional observations from a re-analysis of the deposited data

How the results depend on the processing

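The rule gave 300 genes, and 182 with library totals that include both excluded genes, 8 with a limit of 1.1, 1051 with 1.3, 174 with a minimum of 50 CPM and 579 without ZT34. Leaving out each replicate gave 222 to 235, with 189 to 203 of them among the 300. Other scalings, group medians, a minimum of 1 CPM and WT ZT34 replicate 1 kept gave 258 to 309. Among the 300 were 237 with TMM, 237 with size factors from the median of ratios and 224 with group medians. All 300 remained with the minimum of 1 CPM, and 212 with WT ZT34 replicate 1 kept. Stable genes called between times in WT were 91, and 17 to 56 without a replicate (17 without replicate 2, 56 without replicate 1 and 52 without replicate 3), while the share of all genes called went from 44.1% to 19.8, 37.1 and 31.9%. In KO they were 115, and 30 to 84 without a replicate (30 without replicate 2, 42 without replicate 3, 84 without replicate 1), and 43 with WT ZT34 replicate 1 kept in its group, while the share of all genes went from 60.6% to 40.3, 45.2, 52.9 and 36.8%. The median absolute log2 change in WT ZT34 replicate 1 was 0.296, and 0.324 with TMM, 0.324 with size factors from the median of ratios, 0.28 against the other 20 WT libraries, and 0.267 to 0.318 without 1 of its replicates. With the replicate number as a block, edgeR called 195 stable genes in WT ZT34 replicate 1, 159 between genotypes, 92 between times in WT and 113 between times in KO (68.4, 90.7, 44.0 and 60.6% of all genes), and changed no call of the 4 genes named as farthest up or down in that library; same-numbered libraries of the genotypes correlated in their deviations at 0.093, -0.045 and 0.243, so the numbers were not taken as pairs. DESeq2 called 203, 160, 103 and 126 (70.4, 90.8, 48.8 and 63.5% of the genes it tested). Between genotypes, edgeR called 163 stable genes, 121 to 143 without a replicate and 116 with WT ZT34 replicate 1 kept. The shares of all genes called were 90.7%, 88.0 to 89.4% and 88.1%. Of 225 alternative values, 179 kept their direction and stayed within the spread or within 1.5 times. By kind these were 100 of 130 ratios of named genes, 36 of 36 log2 changes and 43 of 59 counts and medians. The alternative without a filter on low counts could only repeat the main values, since filterByExpr removed 0 genes. The smallest count of a stable gene in the 41 libraries used was 349, and the part of depth in the choice was not tested. Other limits are 3 replicates, 1 library outside the choice that stands apart, and unnamed genes.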
